A study of Rattus norvegicus with 20 samples.

Results

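The endothelin and angiotensin system was described through 7 genes in primary cultures of neonatal rat heart cells treated with diclofenac, an anti-inflammatory cyclooxygenase inhibitor. Edn1 encodes the precursor of the peptide endothelin-1, Ece1 the enzyme that converts it, and Ednra and Ednrb its receptors. Agt encodes angiotensinogen, Ace the enzyme that converts angiotensin I to angiotensin II, and Agtr1a a receptor for angiotensin II. Members were the non-control probes whose gene name in the scanner files, case ignored, was one of these symbols and whose description named the same gene. They were 11 of 41012 probes. All 11 probes and all 7 genes passed the filter on dim probes, as did 35065 probes and 30504 genes in the whole series.

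Endothelin-1 is made as a long precursor that is trimmed and then cut by endothelin converting enzyme into the active peptide. Angiotensinogen is first cut to angiotensin I, which angiotensin converting enzyme turns into angiotensin II. Both peptides act through G protein coupled receptors that raise intracellular calcium and activate protein kinase C, and both are known for driving hypertrophic growth of cardiomyocytes and contraction of vessels.

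The study compared untreated cultures with cultures given the drug, using 1-colour Agilent rat arrays. Cells from neonatal heart, labelled as cardiomyocytes, had grown for 1 day in DMEM before treatment. The untreated cultures had 2 arrays. Diclofenac was given for 6 h or for 24 h at a reference concentration of 1, 1/5 or 1/25, with 3 arrays for each of these 6 groups. The sources used here give no molar concentration, no strain and no time for the untreated cultures. Time in culture and time of treatment therefore cannot be told apart, nor can treatment and time in culture where untreated cultures are the reference. Nothing in the labels ties replicates to separate cultures or animals, so the p-values below cover only how far these arrays spread, and that spread may be technical.

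Values are normalised log2 signals, that is, the log2 of a probe's processed signal minus that array's 75th percentile, so that 0 is the level of a bright probe and each unit is a doubling. Between 64.1% and 88.2% of the spots of an array were well above background. The third array of 1/5 at 24 h had the lowest share (64.1%), and it held the lowest Edn1 value and the highest Ednrb and Agtr1a probe 2 values given below. The first array of 1/25 at 24 h (72.4%), the second of 1/25 at 6 h (75.1%) and the first of 1/5 at 24 h (76.5%) followed. All arrays of concentrations 1 and 1/5 at 6 h were scanned on 1 day and all those at 24 h on another. Time and scan day therefore cannot be told apart at these concentrations. Both untreated arrays were scanned with these 6 h arrays, and no array of 1/25 at 6 h or of any 24 h group was. Where these groups are set against untreated, treatment and scan day cannot be told apart either. All 11 cardiomyocyte markers measured, among them Tnnt2, Actc1 and Myl3, were well above background on at least 19 of 20 arrays. Markers of other cell types were measured too, and Ptprc, a leukocyte marker, was well above background on all 20.

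The probes are shown because the result for a gene turned on which of its probes was read. The first 30 bases of each 60-base probe are given 5′ to 3′ as the scanner files hold them, with the brightest probe of a gene as probe 1. No letters are in capitals, since no motif was marked.
Edn1: catttcagggagaaactccaaagtccatgc
Ece1 probe 1: tcaagcccggagtttccctgcaggcacaag
Ece1 probe 2: acaagaacgcctccggtatgtctgactgag
Ece1 probe 3: ccactgtgtcaaatgctttaaagatatatt
Ace probe 1: tctgccattatgaattacttcaagccactg
Ace probe 2: ctcctgctttacatgcagattcactgtgga
Agtr1a probe 1: cagcctagcttcccgactgcccaagtccct
Agtr1a probe 2: acccaagtccacacatcaaagtcacactgc

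Positions are those in the scanner files, on build rn3, and whether they fall in an exon, intron or UTR was not analysed here. The Edn1 probe lies at chr17:28306864-28306923 on the minus strand. The Agtr1a probes lie at chr17:40631317-40631376 and chr17:40632340-40632399, both on the minus strand, with starts 1023 bases apart. The Ace probes, on the plus strand, lie at chr10:95395122-95395181 and chr10:95396117-95396176. On the plus strand, Ece1 probe 1 lies at chr5:156747337-156747396 and probe 3 at chr5:156745707-156745766, 1630 bases upstream in start. Ece1 probe 2 is listed at chr5:156701313-156706980, where its 60 bases span 5668 bases of genome. The Ednra probe, at chr19:32107866-32109866, likewise spans 2001 bases. The Agt probe lies at chr19:54743746-54743805 and the Ednrb probe at chr15:87909414-87909473, both on the minus strand.

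Between 6 h and 24 h of diclofenac, 3 of the 7 members fell and none rose past the threshold (limma over all genes, Benjamini-Hochberg adjusted p under 0.05, 9 arrays against 9, averaged over the concentrations). Edn1 was 3.29-fold lower at 24 h and Ece1 2.25-fold. Ace passed as well by a probe that was not well above background on 9 of these 18 arrays, so no fold is given for it. That probe passed the filter only through untreated and concentration 1 at 6 h, where its means were highest. Its lower level at 24 h is therefore not independent of the filter. Changes were common in this comparison, and 21.0% of all genes passed the threshold (13.4% lower and 7.69% higher). The median change of the 7 members was -0.51, beside -0.095 over all genes. In bulk cultures, fewer cells of a type and less RNA per cell cannot be told apart. The share of calls that were higher depended on the scaling and was 36.5% here, 60.1% with quantile normalization, 77.5% in the deposited table and 56% among probes well above background on all arrays. The deposited table placed the median change of all genes at 0.30. Set against each scaling's own median, the change of Edn1 was -1.62 here, -1.62 in the deposited table and -1.46 with quantile normalization, and that of Ece1 was -1.07, -1.07 and -1.28. That of Ace went from -1.11 here to -0.73 in the deposited table, -0.56 with quantile normalization and -0.63 with normexp correction, and it passed under none of these 3 alternatives.

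**Figure D1:**
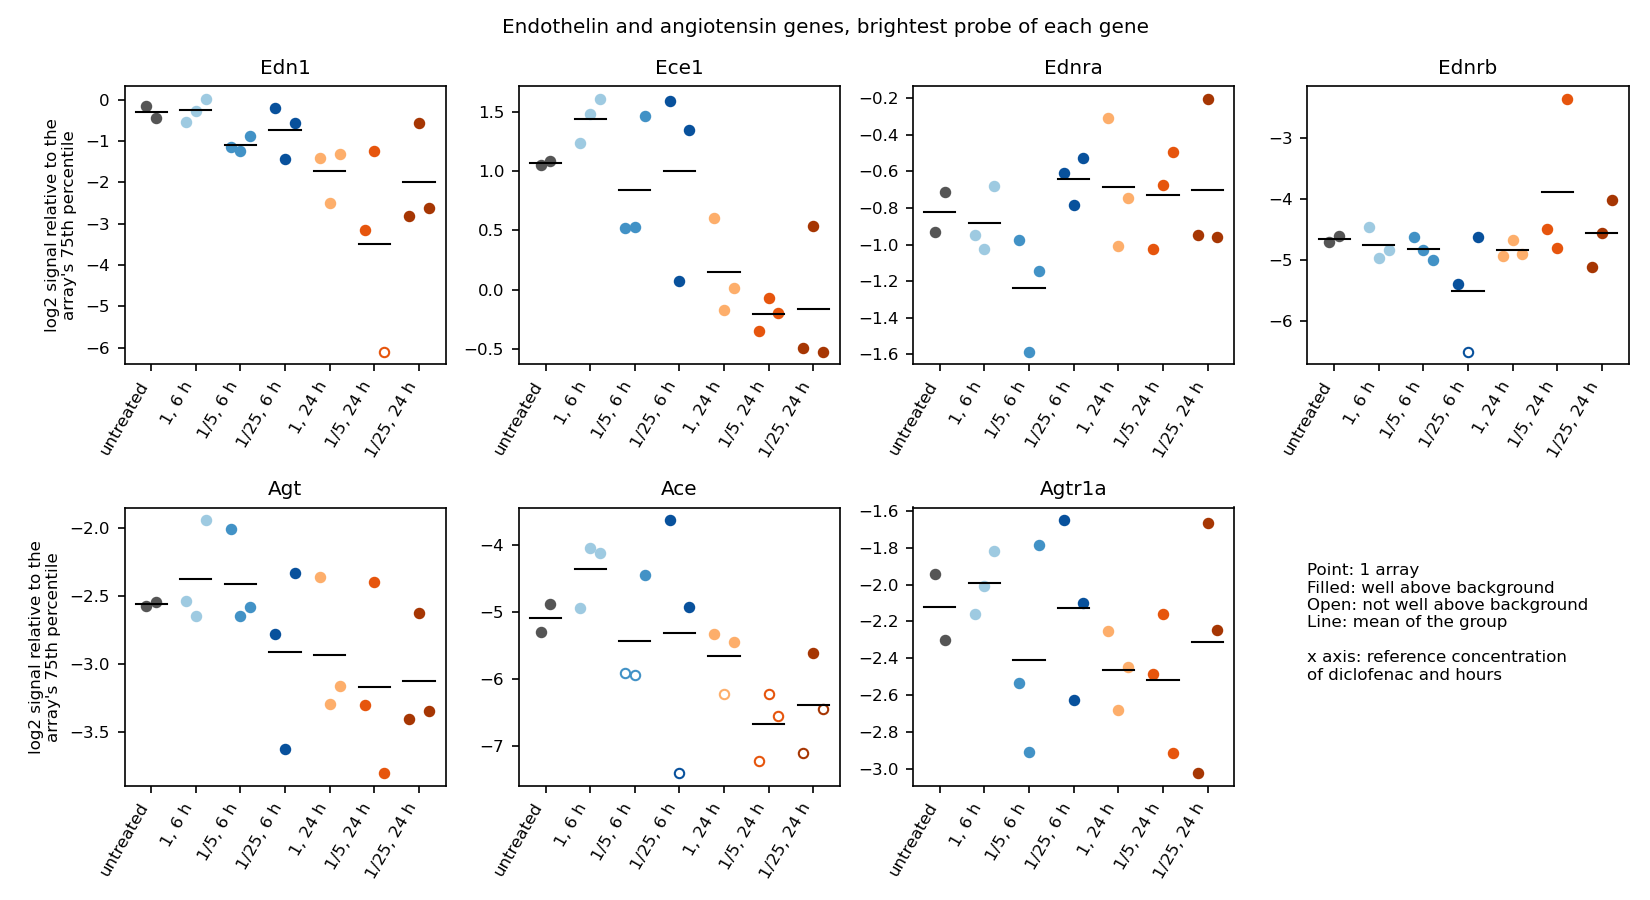
Normalised log2 signal (y axis) of the brightest probe of each of the 7 members on all 20 arrays, grouped along the x axis as untreated and as the 3 concentrations at 6 h and at 24 h. Filled points are arrays where the probe was well above background, open points are arrays where it was not, and lines are group means. Edn1 and Ece1 lie lower in the 24 h groups, while the values of the receptors Ednra and Ednrb at 6 h and 24 h overlap.

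Edn1, the endothelin-1 ligand gene, read -0.16 and -0.44 in the untreated cultures. At 6 h it read -0.53, -0.26 and 0.03 at concentration 1, -1.14, -1.24 and -0.88 at 1/5, and -0.21, -1.43 and -0.57 at 1/25. At 24 h it read -1.41, -2.49 and -1.31 at concentration 1, -3.16, -1.24 and -6.10 at 1/5, and -2.83, -0.56 and -2.61 at 1/25. All 9 arrays at 24 h were below both untreated arrays. Taken 1 concentration at a time, such non-overlap held for 17.7%, 19.4% and 20.3% of all genes at 1, 1/5 and 1/25. The share of all genes with all 9 below was not counted. Of the 9 arrays, 5 were below every 6 h array, while the other 4 overlapped with the 6 h range. The lowest value, on the third array of 1/5, was the only one not well above background. The probe had 10 spots on each array, whose SD within an array had a median of 0.079 and a highest value of 0.44.

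The mean of Edn1 went from -0.69 ± 0.51 (SD, n = 9) at 6 h to -2.41 ± 1.64 (SD, n = 9) at 24 h. The change was -1.72 ± 0.49 (SE, 95% interval -2.76 to -0.68; limma adjusted p = 0.0260). Without the third array of 1/5 at 24 h it was -1.29 with an adjusted p of 0.0197. Leaving out any 1 of 6 other arrays lost the call, with adjusted p up to 0.0630 (the second of 1 at 24 h) and changes from -1.68 to -1.58. These were the second of 1 at 24 h, the third of 1 at 6 h, the third of 1/5 at 6 h, the first of 1/25 at 6 h and the first and the third of 1/25 at 24 h. Without the 4 arrays of lowest share well above background the change was -0.94 (adjusted p = 0.0637).

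The change of Edn1 had the same sign at each concentration, -1.48 at 1, -2.42 at 1/5 and -1.26 at 1/25. Without the third array of 1/5 at 24 h, which was not well above background, the change at 1/5 was -1.12. Its group means ran in the order 1 at 6 h, untreated, 1/25 at 6 h, 1/5 at 6 h, 1 at 24 h, 1/25 at 24 h and 1/5 at 24 h. No gap between neighbours in that order exceeded the larger SD of the pair. Within slide 4, which held 1 array of 1/25 at 6 h and all 3 of concentration 1 at 24 h, the 24 h arrays were lower by a difference of -1.16. Within the second scan day, the single 24 h array of 1/25 differed by -2.09 from the 3 at 6 h.

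Ece1, whose product makes endothelin-1 from its precursor, fell by its brightest probe. That probe read 1.06 and 1.08 in the untreated cultures. At 6 h it read 1.23, 1.48 and 1.61 at concentration 1, 0.52, 0.53 and 1.47 at 1/5, and 1.59, 0.07 and 1.35 at 1/25. At 24 h it read 0.60, -0.18 and 0.01 at concentration 1, -0.35, -0.07 and -0.20 at 1/5, and -0.49, 0.54 and -0.52 at 1/25. All 9 arrays at 24 h lay below both untreated arrays, a pattern whose share of all genes was not counted. Of these 9, 7 lay below every 6 h array. The other 2, at 0.60 and 0.54, overlapped with the lowest 6 h arrays.

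The change of Ece1 by probe 1 was -1.17 ± 0.24 (SE, 95% interval -1.67 to -0.67; limma adjusted p = 0.00732). It passed the threshold with each of the 20 arrays left out in turn, with changes from -1.32 to -1.06 and adjusted p from 0.00130 to 0.0207. By concentration the change was -1.30 at 1, -1.05 at 1/5 and -1.16 at 1/25. Only 2 neighbouring steps in the order of group means exceeded the larger SD of the pair, from 1 at 6 h (1.44 ± 0.19) to untreated (1.07 ± 0.02) and from 1/5 at 6 h (0.84 ± 0.54) to 1 at 24 h (0.15 ± 0.41; SD, n = 3, or n = 2 untreated). Within slide 4 the 3 arrays of concentration 1 at 24 h differed by -1.20 from the 1 array of 1/25 at 6 h. Within the second scan day, the single 24 h array of 1/25 differed by -1.50 from the 3 at 6 h.

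The other probes of Ece1 did not move alike. Probe 3, close to probe 1 in position, read -2.40 and -2.07 untreated, between -4.03 and -1.40 at 6 h and between -4.96 and -2.96 at 24 h. All 9 of its 24 h values were below both untreated arrays and 4 were below every 6 h array. How many of all probes had all 9 below both untreated arrays was not counted. In a fit over all kept probes, where 22.7% passed the threshold (15.4% lower, 7.32% higher), probe 3 changed by -1.62 ± 0.36 (SE; limma adjusted p = 0.00976). It passed with each array left out in turn.

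Ece1 probe 2, whose bases are spread over the span of genome given above, read -2.35 and -2.27 untreated. It ranged from -2.45 to -1.48 at 6 h and from -2.82 to -1.27 at 24 h, so the times overlapped. Its change was -0.063 ± 0.20 (SE; limma adjusted p = 0.822), and its sign turned with quantile normalization (0.23) and in the deposited table (0.34). Taking the median of the kept probes gave Ece1 a change of -0.22 (adjusted p = 0.375), so the call held for probes 1 and 3 and not for the median. Of 3707 genes with several kept probes, 19.0% had a wider range of change among their probes than the 1.55 of Ece1.

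**Figure D2:**
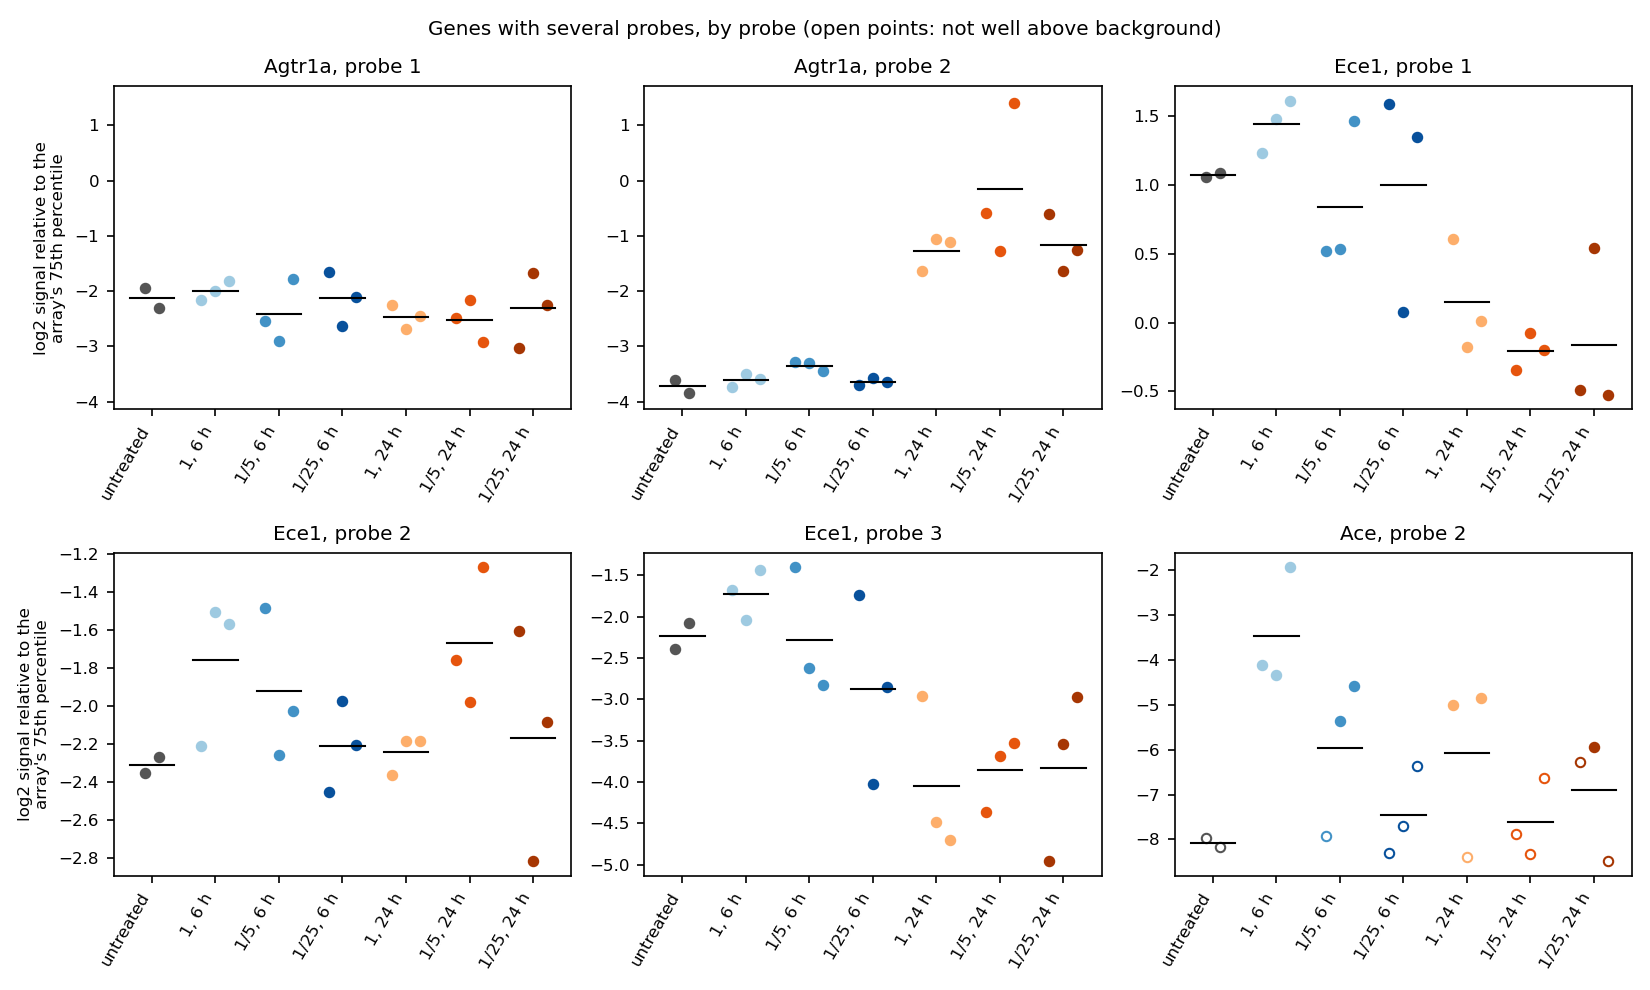
Normalised log2 signal (y axis) of both Agtr1a probes, the 3 Ece1 probes and the second Ace probe on each of the 20 arrays (x axis, by group). Filled points are well above background, open points are not, and lines are group means. Agtr1a probe 2 lies between -3.84 and -3.29 in the untreated and 6 h arrays and between -1.64 and 1.41 at 24 h, while probe 1 shows no such step.

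The endothelin receptors did not pass the threshold in either direction. Ednra, the type A receptor, read -0.93 and -0.71 in the untreated cultures. At 6 h it read -0.95, -1.02 and -0.68 at concentration 1, -0.97, -1.59 and -1.15 at 1/5, and -0.61, -0.78 and -0.53 at 1/25. At 24 h it read -0.31, -1.01 and -0.75 at concentration 1, -1.03, -0.67 and -0.50 at 1/5, and -0.95, -0.20 and -0.96 at 1/25. The 24 h values lay mostly inside the 6 h range, with 3 of 9 above every 6 h array. The difference of 24 h and 6 h was 0.21 ± 0.17 (SE, 95% interval -0.15 to 0.58; limma adjusted p = 0.347), with -0.012 under array weights and 0.61 in the deposited table, where it passed (adjusted p = 0.0212).

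Ednrb, the type B receptor, was well above background on 19 of 20 arrays, the exception being the second of 1/25 at 6 h (-6.50). It read -4.70 and -4.60 in the untreated cultures. The 9 arrays at 6 h ran from -6.50 to -4.46, and the 9 at 24 h from -5.11 to -2.35. The highest value was on the third array of 1/5 at 24 h, and 2 of the 24 h arrays exceeded every 6 h array. The difference was 0.60 ± 0.31 (SE, 95% interval -0.06 to 1.26; limma adjusted p = 0.150). It passed the threshold with array weights, with slide as a random block, with quantile normalization and in the deposited table, and was 0.22 without the 4 arrays of lowest share.

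Agt, the angiotensinogen gene, read -2.57 and -2.55 in the untreated cultures. At 6 h it read -2.54, -2.65 and -1.94 at concentration 1, -2.01, -2.65 and -2.59 at 1/5, and -2.78, -3.63 and -2.34 at 1/25. At 24 h it read -2.36, -3.29 and -3.16 at concentration 1, -3.30, -2.40 and -3.80 at 1/5, and -3.41, -2.63 and -3.34 at 1/25. The times overlapped, with only the third array of 1/5 at 24 h below every 6 h array. The difference of 24 h and 6 h was -0.51 ± 0.24 (SE, 95% interval -1.02 to 0.005; limma adjusted p = 0.125). Without the second array of 1/5 at 24 h it was -0.64 with an adjusted p of 0.0362, and it also passed with array weights and with slide as a random block. It was -0.082 with quantile normalization (adjusted p = 0.734) and -0.096 in the deposited table (adjusted p = 0.716).

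Ace, which encodes the angiotensin converting enzyme, was close to background. Probe 1 was well above background on both untreated arrays, on 6 of 9 arrays at 6 h and on 3 of 9 at 24 h, among them none of 1/5. It read -5.30 and -4.89 in the untreated cultures, ran from -7.40 to -3.63 at 6 h and ran from -7.22 to -5.33 at 24 h. All 9 arrays at 24 h were below both untreated arrays, a pattern whose share of all genes was not counted. Untreated and concentration 1 at 6 h were the groups through which the probe passed the filter, so being below them is no separate finding. None of the 9 was below every 6 h array, because the second array of 1/25 at 6 h was the lowest of all. The change was -1.20 ± 0.41 (SE, 95% interval -2.06 to -0.34; limma adjusted p = 0.0470). It was -0.55 with quantile normalization (adjusted p = 0.212) and -0.43 in the deposited table (adjusted p = 0.370).

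The call for Ace depended on single arrays. It held with 4 of the 20 arrays left out in turn and was lost with the other 16, with changes from -1.55 to -0.92 and adjusted p from 0.00389 to 0.102. Those whose loss kept the call were the first array of 1 at 24 h, the second of 1/25 at 24 h, the second of 1/25 at 6 h and the second of 1/5 at 24 h. Without the 4 arrays of lowest share the change was -1.28 (adjusted p = 0.0264). Probe 2 changed by -1.24 ± 0.59 (SE; limma adjusted p = 0.120). By concentration its change was -2.62 at 1, -1.65 at 1/5 and 0.55 at 1/25. This probe passed the filter only through concentration 1 at 6 h, so its lower mean at 24 h is no separate finding. Against untreated, 1/5 at 24 h was at least 1.34-fold lower by probe 1, a bound set by the lowest signals that counted as well above background on those arrays.

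The members of the angiotensin side differed most within a single gene. Agtr1a, the receptor gene, had a brightest probe that did not separate the times. Probe 1 read -1.94 and -2.30 in the untreated cultures, from -2.91 to -1.65 at 6 h and from -3.02 to -1.66 at 24 h. Its difference of 24 h and 6 h was -0.26 ± 0.22 (SE, 95% interval -0.73 to 0.22; limma adjusted p = 0.383), and it turned to 0.12 with quantile normalization and 0.14 in the deposited table.

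Agtr1a probe 2 was higher at 24 h on every array. It read -3.60 and -3.84 in the untreated cultures. At 6 h it read -3.73, -3.50 and -3.59 at concentration 1, -3.29, -3.31 and -3.45 at 1/5, and -3.70, -3.57 and -3.64 at 1/25. At 24 h it read -1.64, -1.06 and -1.10 at concentration 1, -0.58, -1.27 and 1.41 at 1/5, and -0.61, -1.63 and -1.26 at 1/25. All 9 arrays at 24 h were above all 9 at 6 h and both untreated arrays, with no overlap; 0.279% of all probes had such a separation in this direction. The mean went from -3.53 ± 0.16 (SD, n = 9) to -0.86 ± 0.93 (SD, n = 9). Its 10 spots on an array had a median SD of 0.10.

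The change of Agtr1a probe 2 was 2.67 ± 0.28 (SE; 6.37-fold; limma adjusted p = 0.000162 in the fit over all kept probes). Of the 35063 probes with a value, 9 had a higher change. By concentration the change was 2.34 at 1, 3.21 at 1/5 (2.43 without the third array at 24 h) and 2.47 at 1/25. Over all concentrations it was 2.41 without that array (adjusted p = 3.33e-06), and it passed with every array left out in turn and under each of the 8 other alternatives run on probes. Within slide 4 the 3 arrays of concentration 1 at 24 h were higher by 2.38 than the 1 array of 1/25 at 6 h. Within the second scan day, the single 24 h array of 1/25 was higher by 3.03 than the 3 at 6 h.

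Both Agtr1a probes were well above background on all 20 arrays. Their changes were 2.93 apart, and 2.02% of the 3707 genes with several kept probes had a wider range. The rule of the brightest probe picked probe 1 by a mean of -2.29 over the arrays, against -2.35 for probe 2. With normexp background correction the order turned, and Agtr1a changed by 2.47 (limma adjusted p = 8.17e-05). The median of both gave 1.21 (adjusted p = 0.000783). Rats carry a near-identical paralog, Agtr1b, whose own probe was well above background on 5 of 20 arrays, ran from -7.69 to -4.08 and did not pass the filter. Whether either Agtr1a probe also binds its transcript was not tested.

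**Figure D3:**
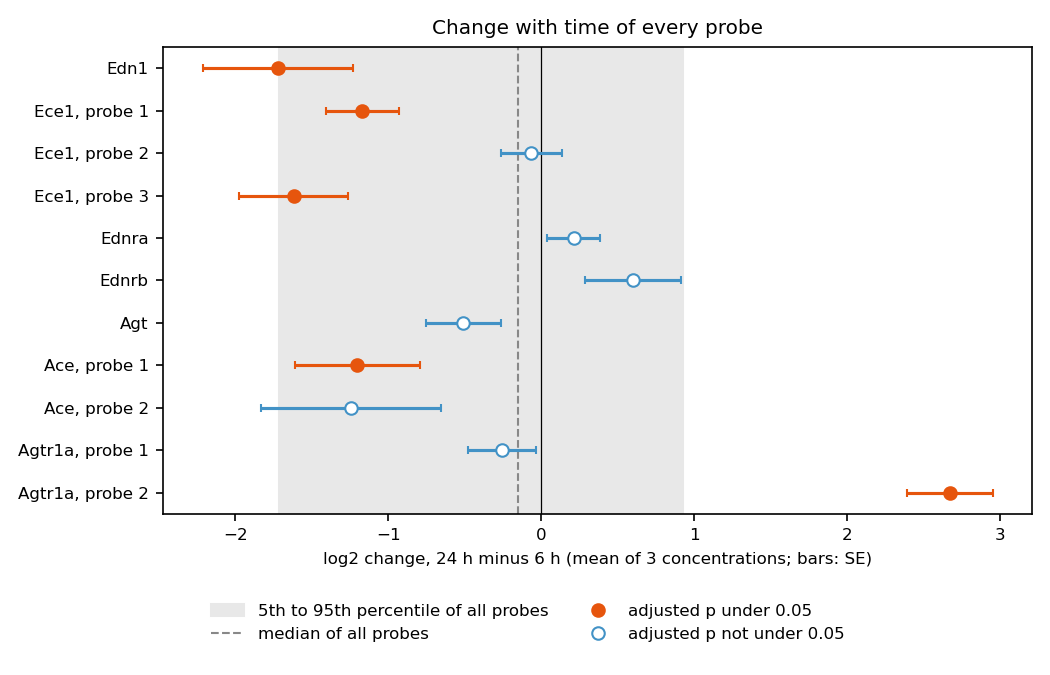
Change in normalised log2 signal from 6 h to 24 h (x axis, ± SE, 9 arrays against 9) for the 11 member probes (y axis), from the fit over all kept probes. The grey band spans the 5th to 95th percentile of all probes and the dashed line is their median; filled orange points passed an adjusted p of 0.05. Agtr1a probe 2 (2.67) lies above the band, Edn1 (-1.72) lies at its lower edge, and the remaining probes lie inside it.

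Against the untreated cultures, none of the 7 members passed the threshold in any of the 6 treated groups (limma, adjusted over all genes). At 6 h the share of all genes that passed was 0.00656% at concentration 1, 0% at 1/5 and 0% at 1/25. At 24 h it was 0.00328% at 1, 0.184% at 1/5 and 0.00328% at 1/25. At an unadjusted p under 0.05, 0 members passed at 6 h and at concentration 1 for 24 h, 2 (Edn1 and Ece1) passed at 1/5 for 24 h and 1 (Ece1) at 1/25 for 24 h, beside 30.4% and 13.4% of all genes at 1/5 and 1/25. The shares of all genes beside the counts of 0 were 1.49%, 1.09% and 1.16% at 1, 1/5 and 1/25 for 6 h and 4.56% at 1 for 24 h. All 6 comparisons share the same 2 untreated arrays, which were scanned on another day than every 24 h array and those of 1/25 at 6 h.

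Edn1 differed from untreated by 0.05, -0.78 and -0.43 at concentrations 1, 1/5 and 1/25 for 6 h and by -1.44, -3.20 and -1.70 for 24 h, each with an SE of 0.95. Ece1 differed by 0.37, -0.23 and -0.07 at 6 h and by -0.92, -1.28 and -1.23 at 24 h, each with an SE of 0.46. The lowest adjusted p for either gene was 0.129, at 1/5 for 24 h. With array weights both passed at all 3 concentrations for 24 h, Edn1 at -1.07, -2.66 and -2.25 and Ece1 at -1.04, -1.38 and -1.55 for 1, 1/5 and 1/25, settings under which 4993, 12427 and 15438 genes passed. Both also passed at 1/5 for 24 h with slide as a random block, where 10476 genes passed against 56 without it and the estimated correlation within a slide was below 0 (-0.17). Edn1 at 1/5 for 24 h depended on single arrays. Its difference was -4.33 without the second array of that group (adjusted p = 0.0136) and -1.90 without the third (adjusted p = 0.249). Edn1, Ece1 and Ace by probe 1 each had all 3 arrays below both untreated arrays at every concentration at 24 h. Non-overlap of that kind was common, and held for 17.7%, 19.4% and 20.3% of all genes at 1, 1/5 and 1/25, each taken alone. The share of all genes with it at all 3 concentrations together was not counted. Ace probe 1 passed the filter only through untreated and concentration 1 at 6 h, so its place below untreated is no separate finding.

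Ace differed from untreated by 0.73, -0.34 and -0.22 at 6 h and by -0.57, -1.57 and -1.30 at 24 h, with an SE of 0.79. Agt differed by 0.18, 0.15 and -0.35 at 6 h and by -0.38, -0.61 and -0.57 at 24 h, with an SE of 0.47. Agtr1a probe 1 stayed between -0.40 and 0.13, Ednra between -0.41 and 0.18 and Ednrb between -0.85 (1/25 at 6 h) and 0.77 (1/5 at 24 h). Without the second array of 1/25 at 6 h the lowest Ednrb value was -0.35, and without the third of 1/5 at 24 h the highest was 0.0041. None of these values passed the threshold, though with array weights Ace passed at 1/5 (-1.98) and 1/25 (-1.37) and Agt at 1/25 (-0.76) for 24 h. The median change of the 7 members was 0.13, -0.29 and -0.22 at 6 h and -0.38, -0.61 and -0.57 at 24 h, beside 0.012, 0.018 and -0.067 and then -0.10, -0.12 and -0.13 over all genes.

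Agtr1a probe 2 was the exception among the probes. It differed from untreated by 0.12, 0.37 and 0.082 at 6 h, with adjusted p of 1 in each case, and by 2.45, 3.58 and 2.55 at 24 h (SE 0.54). The value at 1/5 for 24 h, 11.9-fold, passed the threshold (limma adjusted p = 0.0152), as did 0.148% of all probes, and those at 1 and 1/25 did not (adjusted p of 0.307 and 0.157). Without the third array of 1/5 at 24 h, the value at 1/5 was 2.80 (adjusted p = 0.00435), and those at 1 and 1/25 passed as well, with values of 2.45 and 2.55 and adjusted p of 0.0103 and 0.00634. Leaving out untreated array 1 or 2 lost the call at 1/5, with adjusted p of 0.211 and 0.214 and changes of 3.69 and 3.46.

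Ace probe 2 had the widest difference from untreated of the member probes at 6 h. It was not well above background on either untreated array (-7.97 and -8.16) and was well above background on all 3 arrays of concentration 1 at 6 h (-4.10, -4.34 and -1.93). No other group had all its arrays well above background, so the probe passed the filter through this group alone. Its high level there is therefore no separate finding. The probe had 1 spot on each array. The groups did not overlap, as for 14.9% of all probes, and the bound described for probe 1 put the difference at 5.93-fold or more. The fitted change of 4.61 ± 1.14 (SE) had a limma adjusted p of 1. At concentration 1 for 24 h the probe read -5.00, -8.39 and -4.84 and overlapped with the untreated arrays. Ace probe 1 differed by 0.73 ± 0.79 (SE) in the same comparison at 6 h.

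**Figure D4:**
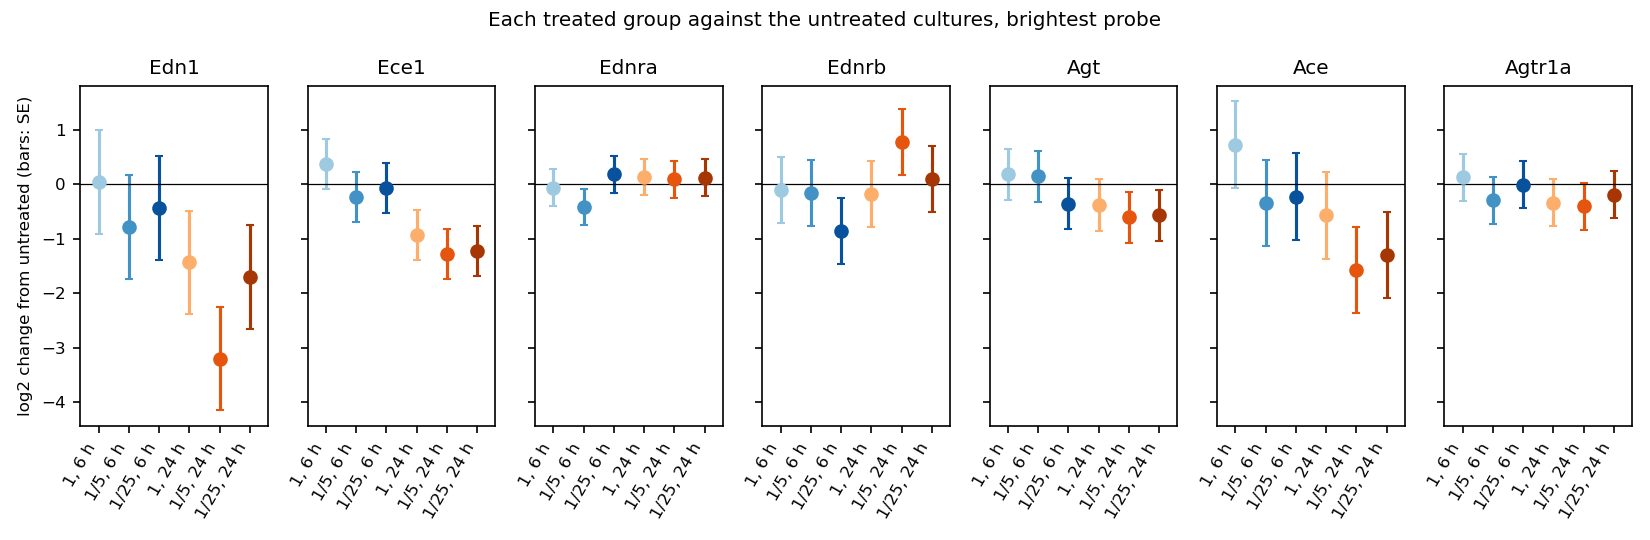
Difference in normalised log2 signal from the untreated cultures (y axis, ± SE, 3 arrays against 2) for the brightest probe of each of the 7 members, at the 3 concentrations for 6 h and 24 h (x axis). Edn1 ranges from 0.05 to -3.20 and Ece1 from 0.37 to -1.28, and none of the values passed an adjusted p of 0.05.

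No difference among concentrations passed the threshold for a member. The moderated F test (limma) over the 7 groups called 0 of 7, beside 0.692% of all genes, with adjusted p of 0.124 for Ece1, 0.195 for Edn1, 0.256 for Ace and up to 0.838 for Agtr1a, and with 2 members at an unadjusted p under 0.05, beside 21.5% of all genes. Among the 3 concentrations it called 0 of 7 at 6 h, beside 0.0229% of all genes, and 0 of 7 at 24 h, beside 0.00983%, with 0 members under an unadjusted 0.05 at either time, beside 3.50% and 14.4% of all genes. At 24 h the lowest adjusted p was 0.409, for Edn1. With array weights Edn1, Ace and Ednrb passed among the concentrations at 24 h (adjusted p of 0.000563, 0.0113 and 0.0109), and Edn1 passed there without the second array of 1/5 at 24 h (adjusted p = 0.0408). Whether the change with time differed between concentrations was tested as an interaction, which called 0 of 7 (adjusted p from 0.931 to 0.996, 0 under an unadjusted 0.05), beside 0.00328% of all genes and 2.80% at an unadjusted p under 0.05. With 3 arrays a group, the orders of group means given above are descriptions, and no order of the concentrations is concluded from them for any member.

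Of 20 other genes of both systems on the list, 17 were measured, and 5 passed the threshold between 6 h and 24 h, beside 21.0% of all genes. Of these, 2 were higher and 3 lower, beside 7.69% and 13.4% of all genes. Enpep, the aminopeptidase that degrades angiotensin II, rose by 1.52 ± 0.38 (SE; limma adjusted p = 0.0167). Ctsg, a protease that can form angiotensin II, rose by 0.94 ± 0.30 (SE; adjusted p = 0.0387). Agtrap, which encodes a protein that binds the type 1 angiotensin receptor, changed by -2.49 ± 0.69 (SE; adjusted p = 0.0231).

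Edn2, the endothelin-2 ligand gene, changed by -1.34 ± 0.45 (SE; adjusted p = 0.0431), and Rnpep, an aminopeptidase gene, by -1.11 ± 0.31 (SE; adjusted p = 0.0249). The other 12 did not pass, among them Agtr2, the type 2 angiotensin receptor (-0.010), Edn3, the endothelin-3 ligand gene (-0.18), and Atp6ap2 (-1.18; adjusted p = 0.0661). The list's median change was -0.23, beside -0.095 over all genes. None of the 17 passed against untreated in any of the 6 groups. Values of the 5 passing genes were wide at 24 h. They ran from -1.76 to 2.10 for Enpep, -3.45 to -0.005 for Ctsg and -6.66 to 0.07 for Agtrap. For Edn2 they ran from -5.96 to -2.61 and for Rnpep from -4.06 to -1.08. How far these calls rest on single arrays is not given here. The probe of Ece2 was well above background on 2 arrays and did not pass the filter.

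**Figure D5:**
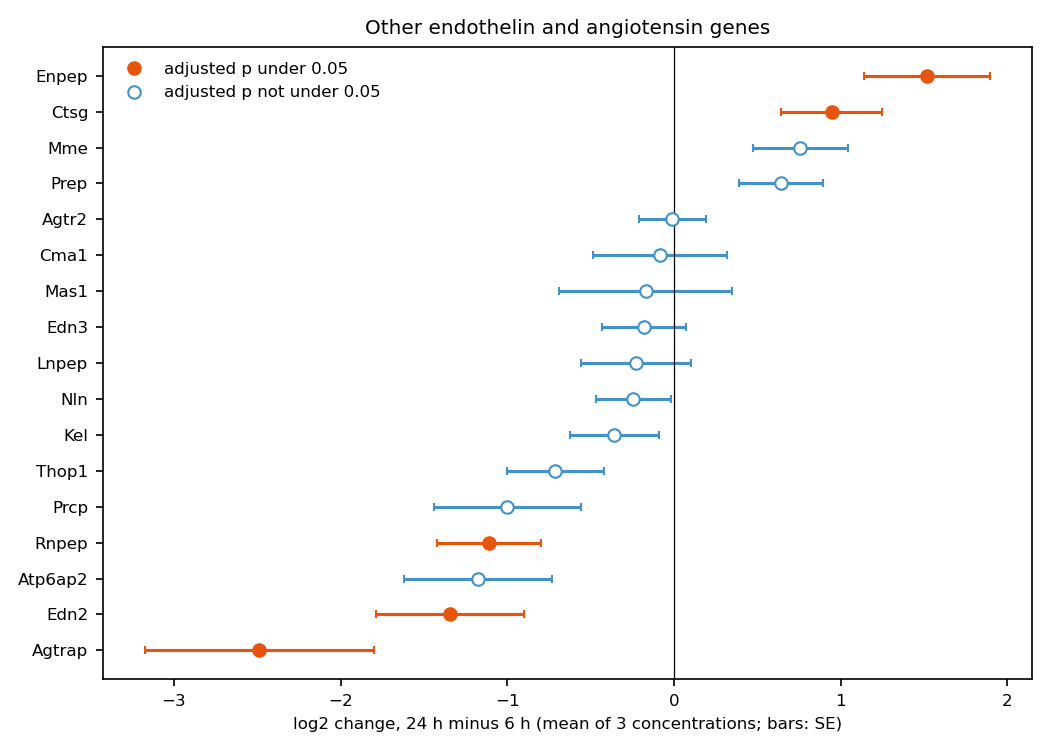
Change in normalised log2 signal from 6 h to 24 h (x axis, ± SE, 9 arrays against 9) for the 17 other measured genes of the endothelin and angiotensin systems (y axis). Filled points passed an adjusted p of 0.05: Enpep and Ctsg higher, Agtrap, Edn2 and Rnpep lower. The probe of Prep was saturated on 17 of 20 arrays.

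Among genes known to respond to endothelin or angiotensin, Ccn2, a matricellular factor, rose by 0.85 ± 0.23 between 6 h and 24 h (SE; limma adjusted p = 0.0212), in a direction that 7.69% of all genes shared past the threshold. Nppa (-0.25), a natriuretic peptide gene and usual readout of hypertrophic growth, did not pass, nor did Acta1 (-1.32) or Myh7 (1.10), which were saturated on 3 arrays and 1 array. The probe of Nppb, the other natriuretic peptide read in this way, was saturated on 19 of 20 arrays, and no change is given for it.

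Of 17 receptor signalling genes 1 rose and 4 fell between 6 h and 24 h, with a median of -0.67. Over all genes in this comparison, 7.69% passed higher and 13.4% lower, with a median of -0.095. Rgs4, which shortens G protein signals, rose by 2.28 ± 0.33 (SE; limma adjusted p = 0.00121), and Prkca, a protein kinase C gene, changed by -2.26 ± 0.34 (SE; adjusted p = 0.00136). Of 15 other vasoactive peptide genes 1 rose, Nppc (1.76 ± 0.35 SE; adjusted p = 0.00633), and none fell, with a median of 0.031. None of the genes of the signalling and peptide lists passed against untreated.

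Marker lists for the cells that make or receive these peptides were read beside the members. Counts of higher or lower markers are between 6 h and 24 h, where 7.69% of all genes passed higher and 13.4% lower. Summed normalised signals of the 9 endothelial markers ran from 2.78 to 3.08 untreated, from 2.16 to 4.21 at 6 h and from 2.79 to 10.6 at 24 h. Kdr, a receptor for vascular endothelial growth factor, carried most of that sum, with 9.98 of the 10.6, and its probe was saturated on 2 arrays. The other 8 endothelial markers summed to between 0.54 and 0.77 untreated, 0.36 and 0.92 at 6 h and 0.29 and 0.63 at 24 h. Within that list 2 genes rose, among them Vwf (1.72), and Flt1 fell (-2.48). Flt1 was also the only marker to pass against untreated, at 1/5 for 24 h, where 0.184% of all genes passed. Summed smooth muscle and pericyte markers (7 genes) ran from 9.20 to 9.97, from 5.88 to 11.3 and from 3.22 to 9.45, with 0 higher and 2 (Myh11 and Cnn1) lower.

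Summed cardiomyocyte markers (11 genes, 1 higher and 3 lower) ran from 21.2 to 23.8 untreated, from 20.8 to 25.4 at 6 h and from 16.3 to 82.5 at 24 h, or to 30.6 without the third array of 1/5. The 4 of them saturated on some arrays, among them Actc1 on all 20 and Tnnt2 on 15, have only a lower bound there, and on that array, whose 75th percentile was the lowest (3165 against 9623 to 21937 elsewhere), a saturated spot reads higher after scaling. The 7 markers never saturated summed to between 10.2 and 10.9 untreated, 8.85 and 10.8 at 6 h and 4.61 and 12.5 at 24 h. Fibroblast markers (10 genes, 1 higher and 1 lower) ran from 19.4 to 22.7, from 17.2 to 21.8 and from 14.3 to 97.4, or to 28.9 without that array. Col1a1 and Col1a2 were saturated on all 20 arrays and 3 others on some, and the 5 never saturated summed to between 3.59 and 3.80, 2.31 and 4.60, and 0.23 and 1.81. Leukocyte markers (7 genes) ran from 4.71 to 4.76, from 3.26 to 5.98 and from 2.19 to 5.11, with Ptprc and Cd68 higher. These 2 were the only ones of the 7 with a change above 0, and the median change was -0.58. No marker counted here was below background on every array, and the part of these cell types in the members' changes was not tested.

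Patterns most like those of the members were taken from the 3 highest Pearson correlations over the 20 arrays among 8740 genes well above background on all of them, as a description, since all values share the same arrays and scaling. Edn1 was most like Cnpy4 (0.975), Pop1 (0.973) and Mybbp1a (0.971), and Ece1 most like Gdf6 (0.955), Erbb2 (0.955) and Ehd1 (0.953). Ace was most like Qtrt1 (0.937), Lrp8 (0.930) and Fastk (0.918), and Agt most like Slc49a3 (0.906), Cela1 (0.905) and Klhl15 (0.904). Agtr1a probe 1 was most like Pgs1 (0.915), Angpt4 (0.904) and Ap1s1 (0.870). Agtr1a probe 2, added after its values were seen, was most like Akr1c15 (0.981), Aar2 (0.961) and Akr1c1 (0.956). Ednrb was most like Or9i16 (0.927) and Naip6 (0.924). Ednra had weaker likenesses, to Or9s27 (0.831), Or7g30 (0.776) and Or10ak14 (0.771). Among the member probes, the highest correlation over the 20 arrays was 0.909, for Ece1 and Ace by their first probes. The lowest was -0.867, for Edn1 and Agtr1a probe 2, followed by -0.802 for Ece1 probe 1 and Agtr1a probe 2.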

How the data were processed

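Total RNA was extracted with Trizol, amplified with an Agilent low-input kit and labelled with Cy3, per the labels' protocols. The deposited scanner files hold intensity values, which Agilent Feature Extraction 9.5.3.1 had corrected for background and not scaled between arrays, per the file headers. A deposited series table holds a ratio; checked against the scanner files, it is the processed signal over the array's median and then over the mean of the 2 untreated arrays. It served as an alternative.

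Outlier and non-uniform spots were left out, spots of a probe were averaged, and the log2 processed signal was taken minus the 75th percentile of the array's non-control spots. A probe was kept where all arrays of 1 or more groups read it well above background, and the brightest kept probe by mean stood for a gene. Symbols were updated through RefSeq by accession (10725 probes), symbol (5587) or synonym (3729), and 20971 probes kept the file's name. All 20 arrays in 7 title groups were fitted with limma 3.58.1 in R 4.3.3 (7 contrasts and 4 moderated F tests, two-sided, Benjamini-Hochberg over all genes, or over all kept probes where a probe is named; threshold 0.05). A fold bound set the bright group's mean against the lowest signal well above background on each array, and leaves out the spread between arrays. Files were read and figures drawn with Python 3.11.15, pandas 2.3.3, numpy 2.4.6 and matplotlib 3.10.9. The fit was tested on simulated data. The members, lists and tests were chosen with earlier results of these data known. All 7 members are named in every comparison, with passing genes of the list of other system genes and up to 2 of each other list. No 2 arrays held the same values. The number of arrays limits the precision. Alternatives covered background correction, scaling, filters, probe choice, array weights, slide, scan day, replicate number and leaving out arrays. No sequence or annotation of build rn3 was used here. A few listed genes are not reported here and were taken out of the lists before their counts and sums were made.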

Additional observations from a re-analysis of the deposited data

Results flagged for a closer look

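At concentration 1, every array lay on one side of the untreated mean at 6 h and on the other at 24 h for 2 members, by their brightest probes. How many of all genes showed this was not counted. At this concentration, 14.0% of genes had all 6 h arrays above both untreated arrays, and 17.7% had all 24 h arrays below both. These shares follow another rule, read at each time alone, and are no background for the count of 2. Ace did not meet that rule at 6 h, with 2 of 3 arrays above both untreated arrays. Ece1 differed from untreated by 0.37 at 6 h and by -0.92 at 24 h (SE 0.46). Probe 2 of Ece1 did not follow, with 24 h values of -2.36, -2.19 and -2.18 and an untreated mean of -2.31. Ace, close to background, differed by 0.73 at 6 h and by -0.57 at 24 h (SE 0.79). Its probe passed the filter only through untreated and this concentration at 6 h. None of these differences passed the threshold. The difference between the times was tested only as an average over the 3 concentrations, and at concentration 1 alone it was not tested. The 24 h arrays of this concentration were scanned on another day than the 6 h arrays.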

How the results depend on the processing

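The changes of Edn1, Ece1 and Ace from 6 h to 24 h kept their sign under every alternative run on their brightest probe. Read by probe 2, Ece1 was 0.61 within the second scan day, and Ace was 0.29 within slide 4 and 1.17 within the second scan day. Edn1 passed the threshold in 9 of 10 tested alternatives that did not leave out a single array, and was lost without the 4 arrays of lowest share well above background (-0.94, adjusted p = 0.0637). Ece1 passed in 11 of 13, and was lost by probe 2 and by the median of its probes. Ace passed in 4 of 11 (array weights, slide as a random block, the median of its probes and without the 4 arrays), and its adjusted p ran from 0.000358 to 0.370 over all alternatives. Agtr1a took the other sign and passed when probe 2 was read, alone, through the median of its probes or through normexp correction. Against untreated, no member passed at first, and array weights, slide as a random block or leaving out 1 array gave the calls named in the report. Agtr1a also passed at 1/5 for 24 h by probe 2 and with normexp correction (3.28, adjusted p = 0.0140). The alternatives that left out these 4 arrays, used scan day, read another probe or compared within slide 4 or the second scan day were chosen after seeing the data. Slide and scan day as fixed blocks could not be fitted for 24 h against 6 h, where their values within a slide or scan day stand in the report. Deviations of same-numbered arrays had a median correlation of -0.040 (57 pairs, 12 of them over 0.1), and those of other numbers 0.042. Same-numbered pairs ran from -0.76 to 0.64, so these values cannot decide whether a number stands for a shared culture or animal. The replicate number was not used as a pairing in the main fit. With it as a block, 4684 genes passed at 24 h against 6 h, Ace lost its call (adjusted p = 0.0615), and no other member changed its call in any comparison. Ace probe 1 was well above background on 11 of 20 arrays and probe 2 on 8, the fewest of the members. Probe 2 was not well above background on either untreated array or on any of 1/5 at 24 h, so its values against untreated below, all fitted to dim untreated signals, support no sign at 24 h or at 1/25 for 6 h. The cause of the other shifts below was not tested.

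Counts of genes past the threshold were 6419 for 24 h against 6 h, 211 for any of the 7 groups, 1 for concentration by time, 3 for the concentrations at 24 h and 7 for those at 6 h. Against untreated they were 1, 56 and 1 for 1, 1/5 and 1/25 at 24 h and 2, 0 and 0 at 6 h. The counts that moved by over 1.5 times follow by setting. With array weights, it was 21031 for 24 h against 6 h, 23723 for any of the 7 groups, 2716 for concentration by time, 17573 for the concentrations at 24 h, 42 for the concentrations at 6 h and 4993 for 1 at 24 h. With array weights, it was 45 for 1 at 6 h, 15438 for 1/25 at 24 h, 12427 for 1/5 at 24 h and 91 for 1/5 at 6 h. With the deposited table, it was 11110 for 24 h against 6 h, 0 for concentration by time, 0 for the concentrations at 24 h, 1 for the concentrations at 6 h, 2 for 1 at 24 h and 1 for 1 at 6 h. With the deposited table, it was 0 for 1/25 at 24 h and 19 for 1/5 at 24 h. With the 4 arrays of lowest share left out, it was 415 for any of the 7 groups, 4 for concentration by time, 2 for the concentrations at 6 h, 59 for 1 at 24 h and 16 for 1/25 at 24 h. With the median of a gene’s kept probes, it was 3 for 1 at 24 h. With no filter on dim probes, it was 0 for 1 at 24 h and 1 for 1 at 6 h. With normexp background correction, it was 0 for concentration by time, 0 for the concentrations at 24 h, 3 for the concentrations at 6 h and 0 for 1 at 6 h. With only probes well above background on all arrays, it was 4250 for 24 h against 6 h, 0 for concentration by time, 0 for the concentrations at 24 h, 1 for the concentrations at 6 h, 0 for 1 at 24 h and 0 for 1 at 6 h. With only probes well above background on all arrays, it was 22 for 1/5 at 24 h. With quantile normalization, it was 440 for any of the 7 groups, 0 for concentration by time, 2 for the concentrations at 6 h and 6 for 1/25 at 24 h. With the replicate number as a block, it was 56 for any of the 7 groups, 0 for concentration by time, 3 for the concentrations at 6 h, 0 for 1 at 24 h, 1 for 1 at 6 h and 0 for 1/25 at 24 h. With the replicate number as a block, it was 21 for 1/5 at 24 h. With scan day as a fixed block, it was 8 for the concentrations at 24 h and 1 for 1 at 6 h. With slide as a fixed block, it was 2 for 1/5 at 6 h. With slide as a random block, it was 14845 for 24 h against 6 h, 14933 for any of the 7 groups, 9 for concentration by time, 4984 for the concentrations at 24 h, 18 for the concentrations at 6 h and 66 for 1 at 24 h. With slide as a random block, it was 65 for 1/25 at 24 h and 10476 for 1/5 at 24 h.

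Of all values, 92 took the other sign under some alternative, none of which had passed the threshold at first and 5 of which, all of Agtr1a, passed under the alternative. They are log2 changes, against untreated unless 24 h against 6 h is named. With array weights, Ace had a change of 0.61 for 1/25 at 6 h, Agtr1a of 0.22 for 1/25 at 6 h and Ece1 of 0.25 for 1/25 at 6 h. With array weights, Ednra had a change of -0.012 for 24 h against 6 h, -0.11 for 1/25 at 24 h and -0.15 for 1/5 at 24 h. With the deposited table, Agtr1a had a change of 0.14 for 24 h against 6 h, -0.022 for 1 at 6 h, 0.30 for 1/25 at 24 h, 0.14 for 1/25 at 6 h and 0.12 for 1/5 at 24 h, Ece1 probe 2 of 0.34 for 24 h against 6 h and Ece1 of 0.078 for 1/25 at 6 h. With the deposited table, Edn1 had a change of -0.10 for 1 at 6 h and Ednrb of 0.043 for 1 at 24 h. With the 4 arrays of lowest share left out, Ace had a change of 0.82 for 1/25 at 6 h, Agt of 0.0029 for 1/25 at 6 h and 0.16 for 1/5 at 24 h and Agtr1a of 0.16 for 1/25 at 24 h and 0.25 for 1/25 at 6 h. With the 4 arrays of lowest share left out, Ece1 had a change of 0.40 for 1/25 at 6 h and Ednrb of -0.15 for 1/5 at 24 h. With the median of a gene’s kept probes, Ace had a change of 0.71 for 1 at 24 h, 0.20 for 1/25 at 6 h and 0.89 for 1/5 at 6 h, Agtr1a of 1.21 for 24 h against 6 h, 1.06 for 1 at 24 h, 1.18 for 1/25 at 24 h, 0.038 for 1/25 at 6 h, 1.59 for 1/5 at 24 h and 0.040 for 1/5 at 6 h and Ece1 of 0.046 for 1/25 at 24 h, 0.24 for 1/25 at 6 h, 0.54 for 1/5 at 24 h and 0.32 for 1/5 at 6 h. With normexp background correction, Agtr1a had a change of 2.47 for 24 h against 6 h, 2.16 for 1 at 24 h, 2.25 for 1/25 at 24 h, 0.023 for 1/25 at 6 h, 3.28 for 1/5 at 24 h and 0.23 for 1/5 at 6 h and Ednrb of -0.064 for 1/25 at 24 h. With the second probe of a gene, Ace had a change of 1.99 for 1 at 24 h, 1.17 for 1/25 at 24 h, 0.62 for 1/25 at 6 h, 0.46 for 1/5 at 24 h and 2.12 for 1/5 at 6 h, Agtr1a of 2.67 for 24 h against 6 h, 2.45 for 1 at 24 h, 2.55 for 1/25 at 24 h, 0.082 for 1/25 at 6 h, 3.58 for 1/5 at 24 h and 0.37 for 1/5 at 6 h and Ece1 of 0.069 for 1 at 24 h, 0.14 for 1/25 at 24 h, 0.10 for 1/25 at 6 h, 0.64 for 1/5 at 24 h and 0.39 for 1/5 at 6 h. With quantile normalization, Ace had a change of 0.20 for 1/25 at 6 h, Agtr1a of 0.12 for 24 h against 6 h, -0.011 for 1 at 6 h, 0.28 for 1/25 at 24 h, 0.14 for 1/25 at 6 h and 0.096 for 1/5 at 24 h and Ece1 probe 2 of 0.23 for 24 h against 6 h. With quantile normalization, Ednrb had a change of 0.19 for 1 at 24 h. With the replicate number as a block, Ednrb had a change of -0.13 for 1/25 at 24 h. With slide as a fixed block, Agt had a change of -0.035 for 1 at 6 h and -0.50 for 1/5 at 6 h and Edn1 of -0.095 for 1 at 6 h. With slide as a random block, Agtr1a had a change of 0.025 for 1/25 at 6 h.

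With 1 array left out at a time, the count of genes past the threshold ran from 2322 to 13476 for 24 h against 6 h, 35 to 4497 for any of the 7 groups, 0 to 4 for concentration by time, 0 to 4155 for the concentrations at 24 h, 1 to 24 for the concentrations at 6 h and 0 to 27 for 1 at 24 h. It ran from 0 to 4 for 1 at 6 h, 0 to 632 for 1/25 at 24 h and 0 to 10771 for 1/5 at 24 h. The lowest count for 24 h against 6 h came without the second array of 1 at 24 h, and the highest without the second of 1/5 at 24 h. The changes that took the other sign with 1 array left out ran from -1.07 to 0.82 for Ace (1/25 at 6 h), -0.035 to 0.32 for Agt (1 at 6 h), -0.64 to 0.0029 for Agt (1/25 at 6 h) and -0.057 to 0.26 for Agt (1/5 at 6 h). They ran from -0.053 to 0.30 for Agtr1a (1 at 6 h), -0.52 to 0.16 for Agtr1a (1/25 at 24 h), -0.24 to 0.25 for Agtr1a (1/25 at 6 h) and -0.16 to 0.046 for Ece1 probe 2 (24 h against 6 h). They ran from -0.36 to 0.40 for Ece1 (1/25 at 6 h), -0.095 to 0.18 for Edn1 (1 at 6 h), -0.055 to 0.29 for Ednra (1 at 24 h) and -0.17 to 0.048 for Ednra (1 at 6 h). They ran from -0.13 to 0.25 for Ednra (1/25 at 24 h), -0.027 to 0.24 for Ednra (1/5 at 24 h), -0.25 to 0.005 for Ednrb (1 at 6 h) and -0.18 to 0.37 for Ednrb (1/25 at 24 h).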
